A study of Saccharomyces cerevisiae with 41 samples.

Results

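The 49 very long genes described here are budding yeast genes with coding sequences of 3.53 to 14.7 kb (median 5.85 kb). They were chosen by name as long genes with known functions, and with earlier results of these data known. Each was read by 1 probe set of the array, and all 49 were among the 5337 genes tested, whose median coding length was 1.25 kb. They make up 17.4% of the 281 tested genes of 3.5 kb and over and 51.4% of the 70 tested genes of 5 kb and over, and 14 of the 20 longest tested genes are among them. They lie on 13 chromosomes. Their median mean signal over all arrays was 10.64 on the log2 scale, against 10.68 for all tested genes.

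UV light joins neighbouring pyrimidines in DNA, and such a lesion in the template strand halts RNA polymerase II. A longer gene offers more template in which a lesion can lie. Nucleotide excision repair removes the lesions, and damage is recognised in it by a complex of Rad4 with Rad23. The long genes of yeast encode large scaffolds, motors and enzymes, among them the core subunits of RNA polymerases, chromatin remodelling ATPases, the TOR kinases, fatty acid synthase and dynein.

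Total RNA was hybridised to 41 arrays of haploid strains of the YPH499 background. The strains were wild type (WT) and deletions of MIG3 (mig3), SNF1 (snf1), RAD23 (rad23), RAD4 (rad4) and both SNF1 and RAD23 (snf1rad23). Mig3 is a repressor of the Mig family, and Snf1 the yeast counterpart of AMP-activated protein kinase. Log phase cultures in YPD at 30 °C received 100 J/m2 of UV-C and recovered in fresh YPD, and the unirradiated arrays were mock treated. Samples came from unirradiated cultures of all 6 strains and from 30 and 60 min of recovery, with a 15 min sample for WT, mig3 and snf1 alone. There were 2 arrays per group, labelled as biological replicates, except for mig3 at 15 min with 1. Below, WT, mig3 and snf1 are called repair-proficient and rad23, snf1rad23 and rad4 repair-deficient, after the genes deleted. A UV response is the log2 level after UV minus the unirradiated level of the same strain. No mock arrays were taken at 15, 30 or 60 min, so a UV response also holds any effect of handling and fresh medium. Array signals were normalized to a shared distribution, so all changes are relative to the other transcripts. In bulk RNA, less of a transcript per cell cannot be told apart from fewer cells holding it.

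The deleted genes' signals fitted the strain labels on all 41 arrays. SNF1 read 2.09 to 2.74 where deleted and 10.69 to 11.92 elsewhere, and RAD4 read 1.99 to 2.27 where deleted and 7.59 to 9.13 elsewhere. In some groups replicate arrays stood apart. The 2 snf1rad23 arrays at 60 min differed by over 2-fold at 276 genes, 3 of the 49 long genes among them. The 2 WT arrays at 60 min differed by over 2-fold at 775 genes, 11 of the 49 long genes among them. The arrays labelled mig3 at 30 and 60 min paired crosswise, since 368 and 381 genes differed over 2-fold between arrays of the same label, but 101 between 30 min replicate 1 and 60 min replicate 2 and 155 between 30 min replicate 2 and 60 min replicate 1. The counts and medians of the pooled difference between strains are therefore also given with snf1 alone as the repair-proficient strain. The 3′ minus 5′ signal of the SPT15 control probe sets, a measure of RNA integrity, was 1.84 to 2.22 on the rad23 and snf1rad23 arrays, 1.46 to 1.67 on the rad4 arrays and 1.18 to 1.69 on the others. It was 2.00 to 2.16 on the unirradiated and 1.84 to 2.22 on the irradiated arrays of rad23 and snf1rad23. Of the other 6 such controls, EAF5 had higher medians in rad23 and snf1rad23, 1.79 unirradiated and 1.94 irradiated, than in WT, mig3 and snf1, 1.04 and 1.09. These EAF5 ranges overlapped on the irradiated arrays but not on the unirradiated ones, 1.28 to 3.18 and 0.94 to 1.15. SRB4 medians were also higher, 3.36 and 3.76 against 3.09 and 3.51. RIP1 medians were lower, 0.23 and 0.20 against 0.34 and 0.49, and the ranges of both overlapped. In rad4 EAF5 was 1.2 on the unirradiated and 0.85 to 1.09 on the irradiated arrays. The mean signal of the 18S ribosomal RNA probe sets moved with UV in the repair-deficient strains without overlap. It was 5.34 to 7.34 unirradiated and 8.18 to 11.42 irradiated in rad23 and snf1rad23, and 7.76 to 8.68 and 10.27 to 12.59 in rad4. In WT, mig3 and snf1 together it was 5.01 to 12.46 (median 6.53) unirradiated and 5.52 to 12.98 (median 11.35) irradiated. Within a strain the values overlapped in WT alone, at 12.46 and 9.01 unirradiated and 5.52 in 60 min replicate 1. There was no overlap in snf1, with 6.29 and 5.01 unirradiated and 8.80 to 12.02 irradiated. Nor was there in mig3, with 6.11 and 6.78 unirradiated and 6.90 to 12.47 irradiated. The part of these controls in the results was not tested.

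The first comparison asked how the long transcripts respond to UV in cells with excision repair. In WT the median UV response of the 49 genes was -0.36 at 15 min, -0.63 at 30 min and -0.59 at 60 min, so at 30 min the median gene was at a level 1.54 times lower than without UV. By limma with adjustment over all 5380 tested probe sets, 4 of the 49 fell at 15 min, 28 at 30 min and 27 at 60 min, and none rose. Over all tested probe sets, 4.59% fell at 15 min, 12.6% at 30 min and 18.5% at 60 min. Without any 1 of the 4 arrays behind the 15 min value, the count there was 0. The 30 min count was 17 without unirradiated replicate 2 and 15 without 30 min replicate 1. The 60 min count was 17 without unirradiated replicate 1 and 13 without unirradiated replicate 2 or without 60 min replicate 2. With array weights the 60 min count was 6, and with only the arrays of the comparison in the fit it was 0. The medians of the 2 WT arrays at 60 min were -0.36 and -0.94, while those at 30 min were -0.69 and -0.57.

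The snf1 and mig3 strains also gave negative medians at each time. In snf1 the median response was -0.19 at 15 min, with 4 genes that fell against 6.06% of all probe sets, and -0.64 at 30 min, with 27 that fell against 15.3%. At 60 min in snf1 the median was -0.50, with 21 that fell against 21% and 4 that rose against 22.4%. The 4 that rose were BLM10, RPO21, POL1 and KOG1. The snf1 count at 15 min was 1 without unirradiated replicate 1 and 0 without 15 min replicate 2, and that at 60 min was 13 without unirradiated replicate 1 and 11 without 60 min replicate 2. In the arrays labelled mig3 the medians were -0.35, -0.67 and -0.57 at 15, 30 and 60 min. There, 1 gene fell at 15 min against 0.483%, 28 at 30 min against 9.44% and 18 at 60 min against 6.75%. The mig3 count at 15 min was 0 without either unirradiated array. At 30 min it was 14 without either unirradiated array and 18 without 30 min replicate 1, and at 60 min it was 9 and 11 without unirradiated replicates 1 and 2. In all of WT, mig3 and snf1, 20 of the 49 fell at 30 min, against 3.49% of all probe sets, and 8 at 60 min, against 2.36%.

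**Figure D1:**
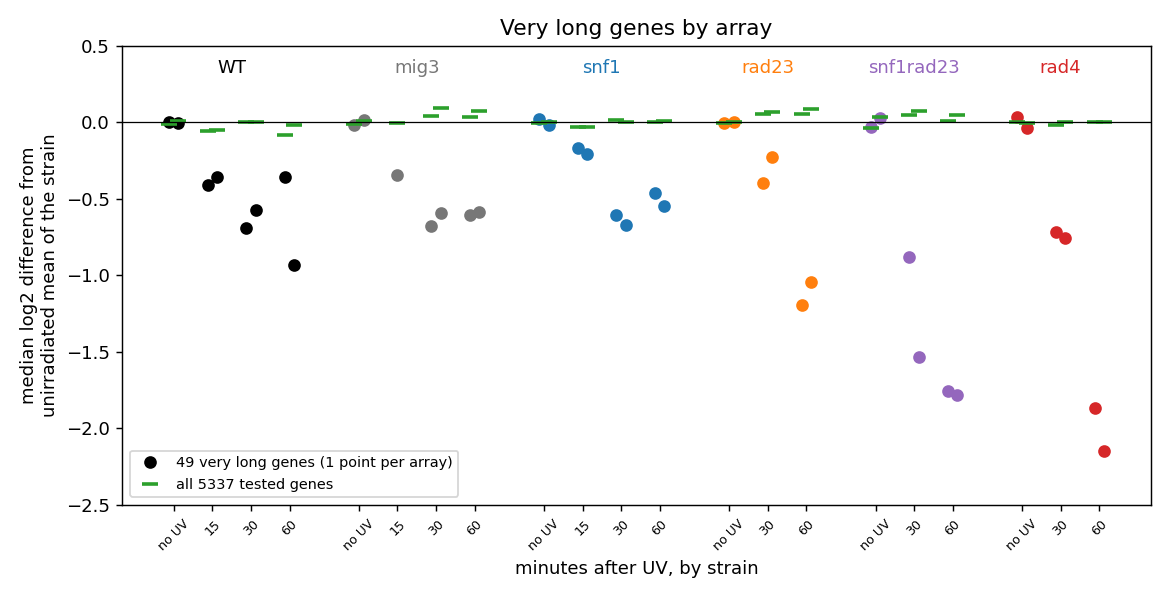
Median difference of the 49 very long genes from the unirradiated mean of the same strain (log2, y axis) for each of the 41 arrays (points), by strain and minutes after UV (x axis), with the median of all 5337 tested genes on the same array as a green dash. The points of rad23, snf1rad23 and rad4 at 60 min lie between -1.05 and -2.15, below all WT, mig3 and snf1 points, while the all-gene medians stay near 0.

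The second comparison asked the same of the strains that lack Rad4 or Rad23. At 60 min the medians of the 49 genes were -1.11 in rad23, -1.80 in snf1rad23 and -2.02 in rad4, which are levels 2.16, 3.48 and 4.05 times lower than without UV. In rad23, 40 of the 49 fell, against 19.3% of all probe sets, and none rose. In snf1rad23, 45 fell, against 25.6%. In rad4, 44 fell against 26.9% and 1, POL2, rose against 26.9%. At 30 min the medians were -0.32 in rad23 (16 fell, against 13.1%), -1.22 in snf1rad23 (41 fell, against 16.1%) and -0.75 in rad4 (32 fell, against 18%). In rad4 at 60 min, the 2 arrays of 46 of the 49 genes lay below both unirradiated arrays. The share of all tested genes separated in this way was not counted, so the 46 cannot be set against it. The array medians of rad4 were -0.72 and -0.76 at 30 min and -1.87 and -2.15 at 60 min. The 2 arrays of snf1rad23 at 30 min were farther apart, at -0.88 and -1.53, and at 60 min they were at -1.76 and -1.79. In all 3 repair-deficient strains at 60 min, 38 of the 49 genes fell, against 11.4% of all probe sets. Of the calls at 60 min, 43 of 45 in rad4, 42 of 45 in snf1rad23 and 28 of 40 in rad23 held without any 1 of the 4 arrays behind them. Those that did not were POL2 and RPO21 in rad4, FAS2, MDN1 and RIF1 in snf1rad23, and DYN1, IRA1, IRA2, KOG1, MDN1, MYO1, POL1, POL2, SCC2, SEN1, SNT2 and UBR1 in rad23. In WT, 14 of 28 calls at 30 min and 10 of 27 at 60 min held in the same way.

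The 8 genes of a damage response list, which includes the ribonucleotide reductase gene RNR3 and the checkpoint-induced gene HUG1, moved the other way at 60 min. The list was chosen with earlier results of these data known. All 8 rose at 60 min in WT, snf1, snf1rad23 and rad4, where 12.1%, 22.4%, 27.2% and 26.9% of all probe sets rose. In rad23 5 rose, against 23.8%, and in the arrays labelled mig3 6 did, against 10.3%. For 75% of the 8 the rad23 response at 60 min was lower than that of WT, against 5.56% of all probe sets. At 30 min 0% of the 8 rose in rad23, against 15.4%, and 75% to 100% in the other strains, against 12.6% to 19.4%. At 15 min 0% rose in WT, mig3 and snf1, and in WT 12.5% fell, against 4.59%.

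The third comparison set the mean UV response of the repair-deficient strains against that of the repair-proficient strains. At 30 min the median difference over the 49 genes was -0.10, and at 60 min it was -1.04. The repair-deficient response was the lower for 39 of 49 genes at 30 min and for 46 at 60 min. At 60 min the median response was -0.58 in the repair-proficient and -1.73 in the repair-deficient strains. The difference was called lower for 42 genes at 60 min, against 17.9% of all probe sets, and higher for 1, MDN1, against 18.7%. At 30 min it was called for 3, MLP2, RPO21 and PRP8, against 2.25%. The 60 min count was 42 to 44 with any 1 array left out, and all 43 calls held. With snf1 alone as the repair-proficient strain, 34 genes were called lower at 60 min with a median difference of -1.20, and 1, RPO21, at 30 min with a median of -0.14. Of the 43 calls at 60 min, 35 held with snf1 alone, while those of CSF1, FAS1, GCN1, INP52, IRA2, SEC7, URA2 and VPS13 did not (adjusted p = 0.0529 to 0.222). The 30 min count of 3 became 0 without snf1 unirradiated replicate 2, and 1 without WT 30 min replicate 2, snf1 30 min replicate 1, rad23 unirradiated replicate 2 or rad4 unirradiated replicate 1. It became 6 without snf1rad23 30 min replicate 1 and 10 without mig3 30 min replicate 1.

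The change of that difference from 30 to 60 min, a contrast chosen after seeing the data, had a median of -0.83 and was called lower for 36 of the 49 genes, against 10.7%. With snf1 alone as the repair-proficient strain the median was -0.99 and the count 31. The 60 min arrays of a strain were also set against its 30 min arrays. In WT the median step from 30 to 60 min was 0.20, with 11 genes that rose against 11.7% and 4 that fell against 16.4%. In snf1 it was 0.31, with 19 that rose against 12% and 3 that fell against 12.3%. In rad4 the step was -1.02, with 34 that fell against 16.5% and 1, RPO21, that rose against 16.5%. In rad23 it was -0.53, with 16 that fell against 5.93%, and in snf1rad23 -0.43, with 14 that fell against 11.6%, and none rose in either. In the arrays labelled mig3 the step was 0.09, and limma called 0 of the 49 and 0% of all probe sets, with 0 at an unadjusted p under 0.05. The count of rises in WT was 2, 4 and 4 without 30 min replicate 1, 30 min replicate 2 and 60 min replicate 1. Without WT 60 min replicate 1 the median step in WT was -0.22. The RPO21 rise in rad4 lost its call without 30 min replicate 2 or 60 min replicate 1. The count of rises in snf1 was 8 without 30 min replicate 2 and 10 without either 60 min array.

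**Figure D2:**
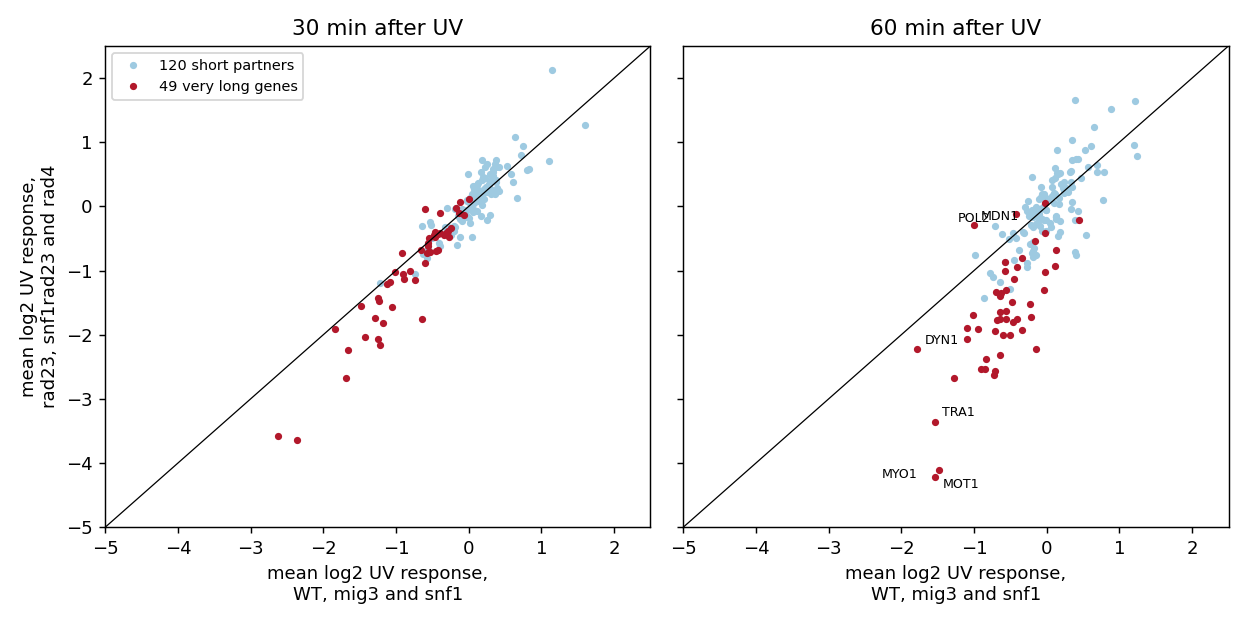
Mean log2 UV response of WT, mig3 and snf1 (x axis) against that of rad23, snf1rad23 and rad4 (y axis) at 30 and 60 min, for the 49 very long genes and 120 short partners of the same complexes, with the line of equal response. At 60 min 46 of the 49 long genes and 64 of the 120 short partners lie below the line, and at 30 min 39 and 60 do.

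All 12 genes of transcription and chromatin fell in rad4 at 60 min, against 26.9% of all probe sets, with a median response of -2.22. All 12 had a lower response in the repair-deficient strains at 60 min, against 17.9% of all probe sets. Most of these proteins are enzymes or scaffolds of large complexes.

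MOT1 encodes the ATPase that removes the TATA-binding protein from DNA. In WT its 2 unirradiated arrays read 10.97 and 10.80, the 30 min arrays 8.17 and 8.52 and the 60 min arrays 10.53 and 8.08. In snf1 they read 10.52 and 10.36, then 8.34 and 8.18, then 9.61 and 9.50. The snf1 arrays at 60 min were thus between the unirradiated and the 30 min ones, while the 2 WT arrays at 60 min were at either end. In rad4 the readings were 10.76 and 10.63, then 5.80 and 6.63, then 4.84 and 5.13. In rad23 they were 10.56 and 10.66, then 7.61 and 7.45, then 7.24 and 7.35, and in snf1rad23 10.99 and 11.02, then 8.06 and 7.24, then 7.58 and 7.17. Every repair-deficient array at 60 min was below every repair-proficient one. The rad4 response at 60 min was -5.71 ± 0.47 (SE, 2 arrays a group; adjusted p = 2.91e-09 by limma), a level 52.3 times lower. The difference between repair-deficient and repair-proficient responses at 60 min was -2.68 ± 0.38 (adjusted p = 1.72e-05). The WT response at 60 min, -1.58 (adjusted p = 0.0137), was -0.35 (adjusted p = 0.555) without WT 60 min replicate 2.

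TRA1, one of the longest genes at 11.2 kb, encodes the scaffold on which activators meet the SAGA and NuA4 complexes. The WT arrays read 10.68 and 10.42 unirradiated, 7.36 and 7.61 at 30 min, and 10.16 and 8.22 at 60 min. In rad4 the same 3 groups read 10.49 and 10.36, 6.95 and 6.88, and 6.87 and 6.90. At 30 min the gene was therefore low in both strains, and at 60 min the rad4 arrays were still at their 30 min level. The rad23 arrays read 11.16 and 11.11 unirradiated and 7.45 and 7.87 at both 30 and 60 min. The snf1rad23 arrays read 10.998 and 10.45, then 6.89 and 7.05, then 8.01 and 7.31, and the snf1 arrays 10.18 and 9.85, then 7.27 and 7.50, then 8.92 and 8.93. The WT response at 30 min was -3.06 ± 0.45 (adjusted p = 3.68e-05) and the rad4 response at 60 min -3.54 (adjusted p = 8.3e-07). The difference between repair-deficient and repair-proficient responses at 60 min was -1.82 ± 0.36 (adjusted p = 0.000526), and -2.26 (adjusted p = 0.00119) with snf1 alone as the proficient strain.

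RPO21 encodes the largest subunit of RNA polymerase II. WT arrays read 12.95 and 12.44 unirradiated, 11.31 and 11.33 at 30 min and 12.32 and 12.30 at 60 min, and in snf1 12.14 and 11.79, then 10.81 and 10.92, then 12.59 and 12.80. In rad23 it read 12.45 and 12.62, then 10.35 and 10.20, then 10.66 and 10.53. In rad4 it read 12.19 and 12.20, then 10.56 and 10.01, then 11.40 and 11.001. The snf1 arrays at 60 min were above the unirradiated ones, and both rad4 and rad23 arrays at 60 min were below theirs. In snf1 at 60 min RPO21 rose by 0.73 ± 0.27 (adjusted p = 0.0329), a call that ended without snf1 unirradiated replicate 2 (adjusted p = 0.218) or either 60 min array (adjusted p = 0.063 and 0.17). In rad4 at 60 min it fell by 1.0 ± 0.27 (adjusted p = 0.00336), and -0.80 (adjusted p = 0.0563) was left without 60 min replicate 2. It was among the 3 genes whose repair-deficient response was lower already at 30 min (-0.94 ± 0.22, adjusted p = 0.0193), a call that ended without snf1 unirradiated replicate 2 (adjusted p = 0.054).

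The ATPases of chromatin remodelling complexes fell together. STH1, the ATPase of RSC, read 10.39 and 10.06 in unirradiated rad4, 8.91 and 8.76 at 30 min and 7.28 and 6.92 at 60 min, a step down at each time with no overlap. Its rad4 response at 60 min was -3.13 ± 0.21 (adjusted p = 1.85e-10), and its responses at 60 min in rad23, snf1rad23 and WT were -2.05, -2.69 and -0.91. Its repair-deficient response at 60 min was lower by -1.89 ± 0.17 (adjusted p = 7.49e-08). CHD1, INO80 and SWR1, each the ATPase of a remodeller of its own, had rad4 responses of -2.31, -2.11 and -2.12 at 60 min, all called. SNF2, the ATPase of SWI/SNF, fell by 1.38 in rad4 and 0.91 in snf1rad23, and its value in rad23 was -0.15 without a call.

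SNT2, a chromatin protein, read 8.91 and 8.71 in unirradiated rad4, 7.28 and 7.69 at 30 min and 5.29 and 4.79 at 60 min. Its rad4 response at 60 min was -3.77 ± 0.31 (adjusted p = 3.3e-09). Its WT arrays read 9.30 and 9.16, then 8.01 and 8.10, then 9.71 and 8.35, so the WT arrays at 60 min lay on both sides of the unirradiated ones. SPP41 followed in rad4 with a response of -3.50 at 60 min. RPA190, the largest subunit of RNA polymerase I, fell by 2.05 in rad4 and by 1.15 in WT at 60 min. SEN1, the helicase that ends transcription of short noncoding RNAs, fell by 2.02 in rad4, with a value of -0.28 in WT without a call.

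**Figure D3:**
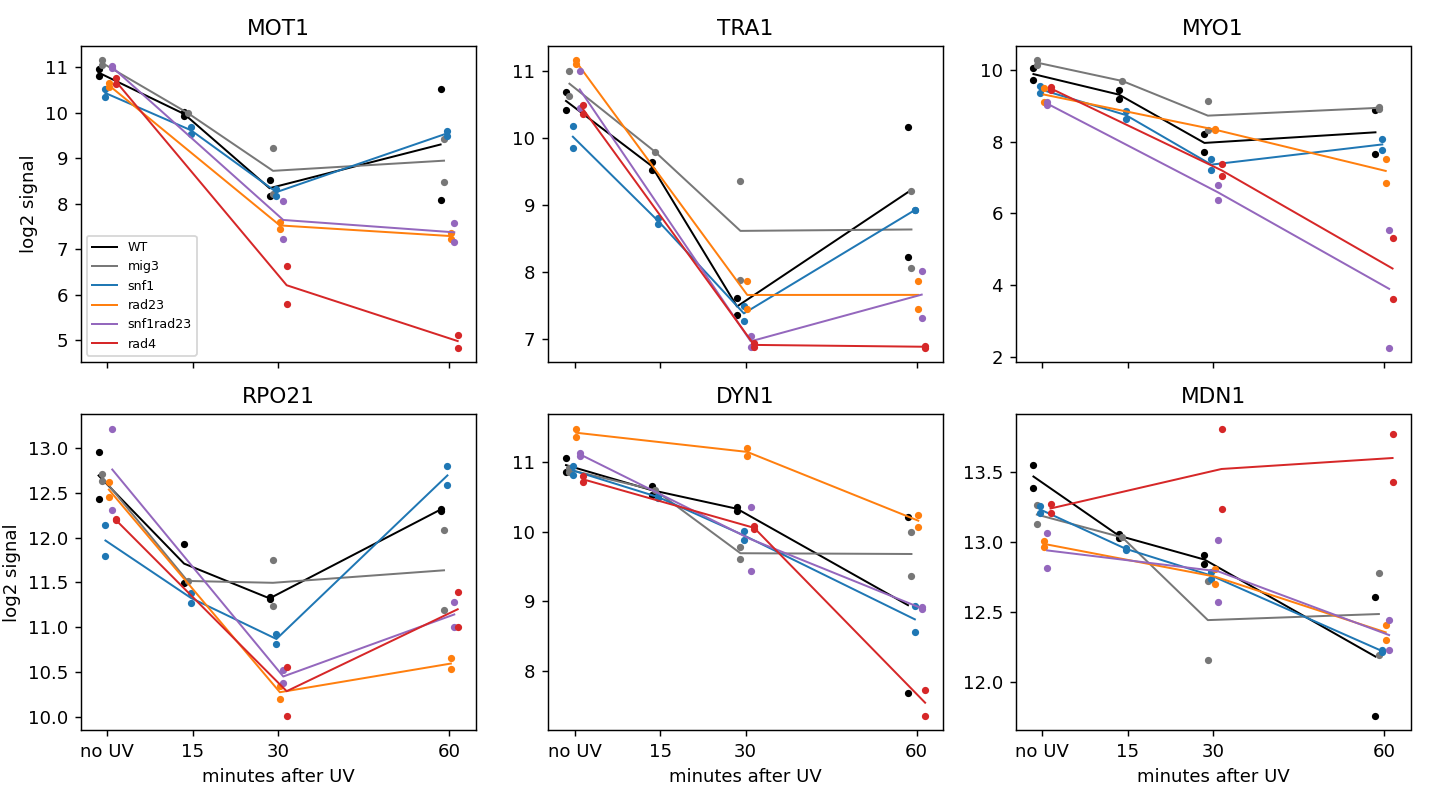
Log2 signal of 6 very long genes (y axes) against time, from no UV to 60 min after it (x axis), with 1 point per array and lines through the group means of the 6 strains. MOT1 in rad4 goes from 10.76 and 10.63 without UV to 4.84 and 5.13 at 60 min, while MDN1 in rad4 stays at 13.21 and above on all arrays.

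**Figure D4:**
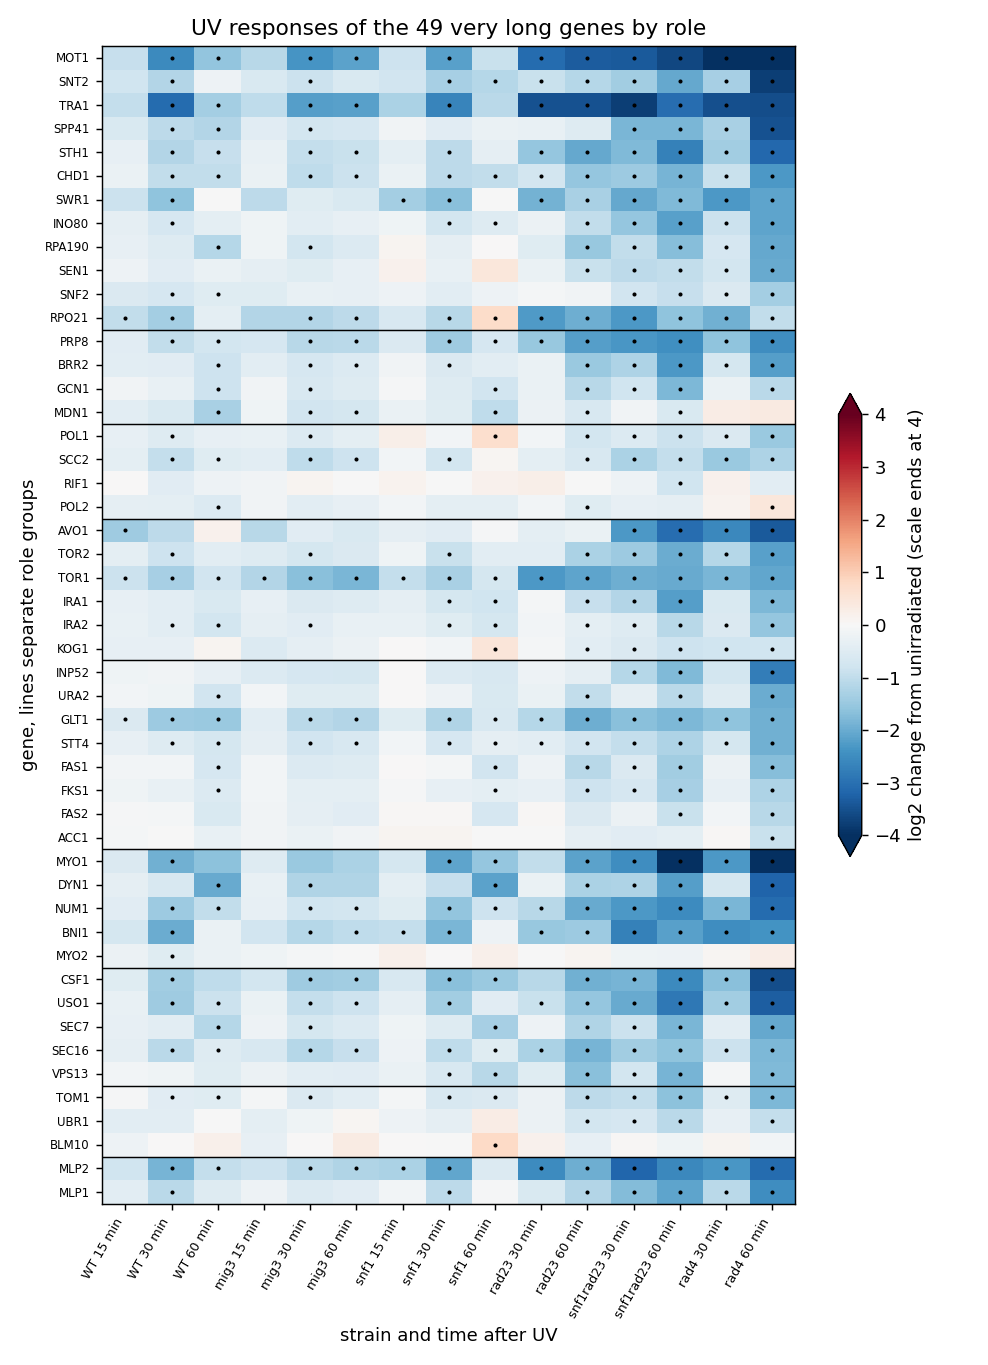
UV response (log2 change from unirradiated, colour) of each of the 49 very long genes (y axis, lines separate role groups) in the 15 combinations of strain and time (x axis), with a dot where limma called the change. The column of rad4 at 60 min holds 44 falls and 1 rise, that of WT at 30 min 28 falls.

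Of the 4 genes of splicing, translation control and ribosome assembly, 3 fell in rad4 at 60 min, against 26.9% of all probe sets. PRP8, the core protein of the spliceosome, read 10.96 and 10.78 in unirradiated rad4, 9.32 and 9.20 at 30 min and 8.44 and 8.35 at 60 min. For WT the readings were 11.07 and 11.03, then 9.98 and 10.12, then 10.35 and 10.29, which is lowest at 30 min. Its rad4 response at 60 min was -2.47 ± 0.19 (adjusted p = 1.48e-09). Its difference between repair-deficient and repair-proficient responses was -0.64 ± 0.16 at 30 min (adjusted p = 0.028) and -1.55 ± 0.16 at 60 min. The 30 min call ended without any 1 of 7 arrays (adjusted p = 0.0502 to 0.0644) and with snf1 alone as the proficient strain (-0.40, adjusted p = 0.306). The 7 arrays were replicate 2 of WT at 30 min, of unirradiated snf1, of unirradiated rad23 and of snf1rad23 at 30 min, and replicate 1 of unirradiated mig3, of snf1 at 30 min and of unirradiated rad4. BRR2, the helicase that acts beside Prp8, fell by 2.21 in rad4 and 2.30 in snf1rad23 at 60 min. GCN1, which activates the Gcn2 kinase on ribosomes, fell by 1.08 and 1.80 there.

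MDN1, at 14.7 kb the longest of the tested genes, encodes the AAA ATPase of large ribosomal subunit assembly and went against the others. In WT it read 13.39 and 13.55 unirradiated, 12.85 and 12.91 at 30 min and 12.61 and 11.76 at 60 min. In rad4 it read 13.28 and 13.21, then 13.24 and 13.81, then 13.44 and 13.77. The WT arrays at 60 min were thus all below the unirradiated ones and the rad4 arrays all above theirs. In WT at 60 min it fell by 1.29 ± 0.23 (adjusted p = 0.000239), and the rad4 value was 0.36 (adjusted p = 0.187). The rad4 response exceeded that of WT at 60 min by 1.65 ± 0.32 (adjusted p = 0.00124). In snf1 MDN1 fell by 1.01 at 60 min, in rad23 by 0.63 and in snf1rad23 by 0.61. The rad23 call ended without any 1 of its 4 arrays (adjusted p = 0.0758 to 0.127), and the snf1rad23 call without unirradiated replicate 2 or 60 min replicate 1 (adjusted p = 0.157 and 0.174). Over all repair-deficient strains its response at 60 min was higher by 0.71 ± 0.19 (adjusted p = 0.00488), the 1 such call among the 49. The mean response was negative in the repair-deficient as well as the repair-proficient strains, so this difference was a smaller fall and not a rise.

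The 4 genes of DNA replication and chromosomes had the smallest median fall of the role groups in rad4 at 60 min, -0.83. POL2, the catalytic subunit of DNA polymerase epsilon, read 10.98 and 10.92 in unirradiated rad4, 11.07 and 11.12 at 30 min and 11.31 and 11.51 at 60 min. The WT readings were 10.88 and 10.85, then 10.41 and 10.51, then 10.76 and 9.85. The rad4 arrays after UV were all above the unirradiated ones, and the WT arrays all below. In rad4 it rose by 0.46 ± 0.19 at 60 min (adjusted p = 0.0441), a call that ended without any 1 of the 4 arrays behind it (adjusted p = 0.0573 to 0.224). Its rad4 response exceeded that of WT by 1.02 at 60 min, a call that ended without rad4 60 min replicate 2 (adjusted p = 0.0569). POL1, the catalytic subunit of DNA polymerase alpha, fell by 1.49 in rad4, and SCC2, the cohesin loader, by 1.22. RIF1, a telomere protein, had a value of -0.43 in rad4 without a call.

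All 6 genes of TOR and Ras signalling fell in rad4 at 60 min, against 26.9% of all probe sets, with a median of -1.94. The TOR1 and TOR2 kinases are paralogs, and TOR1 was the only member of the 49 that fell at 15 min in WT, mig3 and snf1 alike (-0.86, -1.17 and -0.95). The WT call at 15 min ended without any 1 of its 4 arrays (adjusted p = 0.0636 to 0.195), the mig3 call without either unirradiated array (adjusted p = 0.107 and 0.232), and the snf1 call without unirradiated replicate 1 or 15 min replicate 2 (adjusted p = 0.104 and 0.079). TOR1 in rad4 read 9.97 and 9.69 unirradiated, 8.17 and 7.83 at 30 min and 7.86 and 7.65 at 60 min. TOR2 in rad4 read 11.51 and 11.42, then 10.35 and 10.27, then 9.27 and 9.31. TOR1 was thus nearly as low at 30 min as at 60 min, while TOR2 was lower at 60 than at 30 min with no overlap. The rad4 responses at 60 min were -2.08 ± 0.22 for TOR1 (adjusted p = 8.99e-08) and -2.18 ± 0.22 for TOR2 (adjusted p = 5.29e-08). At 30 min in rad23 they were -2.30 for TOR1, which was called, and -0.44 for TOR2, which was not.

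AVO1, a subunit of TOR complex 2 and at 3.53 kb the shortest of the 49, divided the repair-deficient strains. In rad4 it read 8.40 and 8.11 unirradiated, 5.36 and 6.02 at 30 min and 4.96 and 4.84 at 60 min, and in snf1rad23 8.29 and 8.55, then 5.53 and 6.68, then 4.50 and 6.25. In rad23 it read 7.46 and 7.70, then 7.34 and 7.05, then 7.39 and 7.26. The rad4 and snf1rad23 arrays after UV were all far below their unirradiated ones, and the rad23 arrays were close to theirs. The responses at 60 min were -3.35 in rad4, -3.04 in snf1rad23 and -0.25 in rad23, the last without a call. KOG1, a subunit of TOR complex 1, fell by 0.80 in rad4 and 0.83 in snf1rad23.

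IRA1 and IRA2 are paralogs that switch off Ras. In rad4 IRA1 read 12.11 and 12.17 unirradiated, then 11.46 and 11.61, then 10.49 and 10.18. In snf1rad23 it read 13.16 and 12.71, then 12.05 and 11.45, then 10.51 and 10.96. IRA2 in rad4 read 12.82 and 12.68, then 12.16 and 12.21, then 11.37 and 11.04. Both were lower at 60 than at 30 min in rad4, with no overlap. Their responses at 60 min were -1.80 and -1.55 in rad4 and -2.20 and -1.10 in snf1rad23, and the repair-deficient response was lower by -1.0 ± 0.19 for IRA1 and -0.44 ± 0.12 for IRA2.

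The 8 genes of lipid, amino acid, nucleotide and cell wall synthesis all fell in rad4 at 60 min, against 26.9% of all probe sets. Their median was -1.81. FAS1 and FAS2 encode the 2 subunits of fatty acid synthase and are among the brightest of the 49. FAS1 in rad4 read 14.60 and 14.63 unirradiated, 14.34 and 14.42 at 30 min and 13.09 and 12.71 at 60 min. FAS2 in rad4 read 14.21 and 14.26, then 14.07 and 14.19, then 13.18 and 13.04. Both were near their unirradiated level at 30 min and below all earlier arrays of the strain at 60 min. The rad4 responses at 60 min were -1.71 ± 0.23 for FAS1 (adjusted p = 1.92e-06) and -1.12 ± 0.27 for FAS2 (adjusted p = 0.00139). The repair-deficient response at 60 min was lower by -0.76 ± 0.19 for FAS1, and the FAS2 difference, -0.29, was not called.

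GLT1, the glutamate synthase gene, fell in all 6 strains at 30 and at 60 min. In WT it read 13.11 and 12.75 unirradiated, 11.51 and 11.46 at 30 min and 11.85 and 11.05 at 60 min, and in rad4 12.64 and 12.66, then 11.07 and 11.02, then 10.78 and 10.69. No irradiated array of either strain at these times reached its unirradiated ones. The responses at 60 min were -1.48 ± 0.17 in WT (adjusted p = 2.63e-06) and -1.91 in rad4. STT4, a phosphatidylinositol 4-kinase, also fell in all 6 strains at both times, by 0.69 in WT and 1.91 in rad4 at 60 min. Its call in snf1 at 60 min ended without any 1 of 4 arrays (adjusted p = 0.0556 to 0.101), that in rad23 at 30 min without unirradiated replicate 2 or 30 min replicate 1 (adjusted p = 0.119 and 0.138), and that in WT at 30 min without unirradiated replicate 1 (adjusted p = 0.0649). INP52, a phosphoinositide phosphatase, fell by 2.76 in rad4, with a value of -0.37 in rad23 without a call. URA2, of pyrimidine synthesis, FKS1, a subunit of glucan synthase, and ACC1, acetyl-CoA carboxylase, had rad4 responses of -1.98, -1.23 and -0.88.

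Of the 5 genes of motors and the cytoskeleton, 4 fell in rad4 at 60 min, against 26.9% of all probe sets. The median over the 5 was -3.08. MYO1 encodes the myosin II of the cytokinetic ring. In WT it read 9.72 and 10.06 unirradiated, 7.71 and 8.23 at 30 min and 8.88 and 7.65 at 60 min. In rad4 it read 9.46 and 9.53, then 7.04 and 7.37, then 3.60 and 5.33. In snf1rad23 it read 9.03 and 9.10, then 6.80 and 6.37, then 2.25 and 5.53, and 3.89, its mean at 60 min, was the lowest group mean of any of the 49. The rad4 and snf1rad23 arrays at 60 min were below all others, with the 2 replicates far apart in both strains. The snf1rad23 reading of 2.25 was at background, within the 2.09 to 2.74 that SNF1 read where deleted. The responses at 60 min were -5.03 ± 0.62 in rad4 (adjusted p = 6.65e-07), -5.17 in snf1rad23 (adjusted p = 6.83e-07) and -2.13 in rad23 (adjusted p = 0.00858). The rad23 call ended without unirradiated replicate 1 (adjusted p = 0.062) or 60 min replicate 1 (adjusted p = 0.0789). MYO2, the myosin V that carries cargo to the bud, was read in rad4 at 13.11 and 13.13 unirradiated and 13.28 and 13.51 at 60 min, a value of 0.27 (adjusted p = 0.102).

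DYN1, the dynein heavy chain gene of 12.3 kb, fell in proficient and deficient strains at 60 min. In WT it read 11.06 and 10.85 unirradiated, 10.30 and 10.36 at 30 min and 10.21 and 7.68 at 60 min. In snf1 it read 10.82 and 10.94, then 10.01 and 9.88, then 8.93 and 8.55, and in rad4 10.79 and 10.71, then 10.07 and 10.03, then 7.74 and 7.36. In WT, snf1 and rad4 both arrays at 60 min were below both at 30 min, but WT replicate 1 was only just below them. The responses at 60 min were -3.20 ± 0.42 in rad4 (adjusted p = 1.63e-06), -2.13 in snf1 (adjusted p = 0.00035) and -2.01 in WT (adjusted p = 0.00119). Without WT 60 min replicate 2 the WT value was -0.74, and the difference between repair-deficient and repair-proficient strains was -0.44 (adjusted p = 0.336). NUM1, the cortical anchor of dynein, fell by 3.08 in rad4, 2.5 in snf1rad23 and 2.03 in rad23. BNI1, a formin, read 10.67 and 10.82 in unirradiated WT, 8.60 and 8.90 at 30 min and 10.73 and 10.22 at 60 min, against 10.56 and 10.44, 7.92 and 8.08, and 8.06 and 8.17 in rad4. At 60 min BNI1 was thus near its unirradiated level in WT and near its 30 min level in rad4. Its repair-deficient response at 60 min was lower by -1.50 ± 0.18.

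All 5 genes of membrane traffic and lipid transport fell in rad4 at 60 min, against 26.9% of all probe sets, with a median of -2.04. All 5 had a lower repair-deficient response at that time, against 17.9% of all probe sets. Those of CSF1, SEC7 and VPS13 were not called with snf1 alone as the proficient strain. USO1, a tether of vesicles to the Golgi, read 10.88 and 10.82 in unirradiated rad4, 9.13 and 9.77 at 30 min and 7.58 and 7.50 at 60 min. Its readings in WT were 11.06 and 11.31, then 9.51 and 9.99, then 10.45 and 10.19. The WT arrays at 60 min were above those at 30 min and the rad4 arrays below. The rad4 response was -3.31 ± 0.21 (adjusted p = 8.54e-11), and the repair-deficient response was lower by -1.86 ± 0.17 (adjusted p = 9.05e-08). CSF1, a lipid transfer protein, read 10.08 and 9.95, then 8.47 and 8.21, then 7.50 and 5.40 in rad4, with a response of -3.56 ± 0.44 at 60 min (adjusted p = 6.6e-07). Its replicates there were far apart, both below the 30 min arrays. SEC7, which activates Arf at the Golgi, SEC16, of COPII sites, and VPS13, a lipid transfer protein, fell by 2.04, 1.81 and 1.76 in rad4.

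The genes of the nuclear pore basket proteins, MLP1 and MLP2, both fell in rad4 at 60 min, against 26.9% of all probe sets. MLP2 in rad23 read 9.30 and 9.28 unirradiated, 6.66 and 6.87 at 30 min and 7.35 and 7.31 at 60 min, and in rad4 9.997 and 9.92, then 7.64 and 7.65, then 6.72 and 7.03. MLP1 in rad23 read 9.87 and 9.52, then 9.29 and 8.90, then 8.41 and 8.63, and in rad4 10.35 and 10.44, then 9.11 and 9.56, then 7.89 and 7.92. In rad23 MLP2 was lowest at 30 min and MLP1 at 60 min. The rad4 responses at 60 min were -3.08 ± 0.30 for MLP2 (adjusted p = 3.15e-08) and -2.49 for MLP1. The MLP2 difference between repair-deficient and repair-proficient responses was -0.99 ± 0.25 at 30 min (adjusted p = 0.0304) and -1.64 ± 0.25 at 60 min. The 30 min call ended with snf1 alone as the proficient strain (-0.58, adjusted p = 0.353) and without any 1 of 11 arrays (adjusted p = 0.0502 to 0.0706). These were unirradiated replicate 1 of WT and rad4, unirradiated replicate 2 of mig3, snf1 and rad23, both WT arrays at 30 min, and at 30 min replicate 1 of snf1 and rad23 and replicate 2 of mig3 and snf1rad23.

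Of the 3 genes of ubiquitin and the proteasome, the ubiquitin ligase genes UBR1 and TOM1 fell in rad4 at 60 min, by 0.95 and 1.79. Of all probe sets 26.9% fell there. BLM10, a proteasome activator, fell in none of the 15 responses. In snf1 it read 11.65 and 11.69 unirradiated and 12.46 and 12.44 at 60 min and rose by 0.78 ± 0.18 (adjusted p = 0.00108). In rad4 it read 11.92 and 11.84 unirradiated and 11.83 and 11.73 at 60 min, a value of -0.10. Its repair-deficient response was lower than the proficient one by -0.64 ± 0.14 (adjusted p = 0.00137).

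The strains were then compared with WT and with each other. The rad4 response minus that of WT had a median of -0.16 at 30 min and -1.29 at 60 min. At 60 min it was called lower for 37 of the 49 genes, against 9.07% of all probe sets, and higher for 2, MDN1 and POL2, against 8.51%. At 30 min limma called 0 of the 49, against 0.52%, with 5 lower and 2 higher at an unadjusted p under 0.05. The 60 min count was 23 without rad4 60 min replicate 2 or with array weights and 14 with only the arrays of the comparison in the fit, and leaving out WT 60 min replicate 1 or 2 gave a median of -0.89 or -1.66. The rad23 response minus that of WT had a median of 0.24 at 30 min, with 0 called against 1.95% and 2 lower and 4 higher at an unadjusted p under 0.05. At 60 min the median was -0.52, with 10 called lower against 5.56%. The 10 were BNI1, NUM1, PRP8, RPO21, SEC16, STH1, SWR1, TOR1, TRA1 and VPS13. With array weights, or only the arrays of the comparison in the fit, 1 was called. The count was 25 with a median of -0.82 without WT 60 min replicate 2, 4 without WT unirradiated replicate 1, 6 without either unirradiated rad23 array or without rad23 60 min replicate 1, and the median was -0.10 without WT 60 min replicate 1.

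The snf1rad23 response was lower than that of WT for 26 of the 49 genes at 60 min, against 8.74%, with a median of -1.08. The 30 min median was -0.48, with 2 called, INO80 and PRP8, against 1.17%. Without WT 60 min replicate 2 the 60 min count was 40 with a median of -1.34, and without WT 60 min replicate 1 the median was -0.73. With array weights the 60 min count was 3, and with only the arrays of the comparison in the fit it was 0. The 30 min count was 0 to 5 with any 1 array left out, 0 without WT 30 min replicate 2 or snf1rad23 30 min replicate 2 and 5 without snf1rad23 30 min replicate 1. Set against snf1, which leaves RAD23 as the differing gene, the snf1rad23 response had a median of -1.14 at 60 min, with 33 called lower against 16.1%. The 30 min median was -0.47 with 2 called, INO80 and SPP41, against 2.66%. The 60 min count against snf1 was 31 to 33 with any 1 array left out, and the 30 min count 0 to 6.

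Among the repair-deficient strains, rad4 was lower than rad23 at 60 min for 20 of the 49 genes, against 10.9%, and higher for 2, MDN1 and POL2, against 7.88%, with a median of -0.77. At 30 min the median was -0.30, and 3, AVO1, KOG1 and SCC2, were called lower against 3.14%. The snf1rad23 response minus that of rad23 had medians of -0.53 at 30 min and -0.47 at 60 min, with 8 genes called lower against 1.51% and 7 against 3.61%. AVO1, INO80, SPP41 and USO1 were called at both times. These contrasts of rad4 and of snf1rad23 with rad23 were chosen after seeing the data. The count for rad4 at 60 min was 11 without rad23 unirradiated replicate 2, rad23 60 min replicate 2, rad4 unirradiated replicate 1 or rad4 60 min replicate 2, and at 30 min it was 1 without rad23 unirradiated replicate 1, either rad23 30 min array or rad4 unirradiated replicate 1. The counts for snf1rad23 were 1 to 11 at 30 min and 2 to 8 at 60 min with any 1 array left out, 1 without rad23 30 min replicate 2 and 2 without rad23 unirradiated replicate 2. The difference between rad4 and snf1rad23 was not tested.

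Before UV some of the long genes also differed between strains. The median unirradiated level minus that of WT was -0.20 in snf1, -0.16 in rad23, -0.01 in snf1rad23, -0.18 in rad4 and -0.07 in mig3. In snf1, 13 of the 49 were lower and 1 higher, against 45.3% of all probe sets called in either direction. In rad23, 11 were lower and 2 higher, against 47.6%, and in snf1rad23 4 were lower and 2 higher, against 38.6%. In rad4, 2 were lower, RIF1 by -1.21 and STH1 by -0.73, against 6.75%. In mig3 limma called 0 against 8.31%, with 1 lower and 1 higher at an unadjusted p under 0.05. The snf1 total of 14 was 6 to 8 with any 1 of its 4 arrays left out. The rad23 total of 13 was 7 without WT replicate 2 and 8 without rad23 replicate 1, the snf1rad23 total of 6 was 2 and 3 without WT replicate 2 and snf1rad23 replicate 1, and the rad4 total was 0 without WT replicate 2 or either rad4 array. The shares of the 49 called were thus below those of all probe sets in snf1, rad23, snf1rad23, rad4 and mig3.

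The response by length was then described over all tested genes. In rad4 at 60 min the median response was 0.22 for genes under 0.5 kb, 0.15 for 0.5 to 1 kb, 0.06 for 1 to 2 kb, -0.41 for 2 to 3.5 kb, -1.06 for 3.5 to 5 kb and -1.72 for the 70 genes of 5 kb and over. Of those 70, 59 fell and 2 rose, against 26.9% and 26.9% of all probe sets. For genes of 5 kb and over, the medians at 60 min were -1.61 in snf1rad23, -0.96 in rad23, -0.55 in WT and -0.43 in snf1, and for genes of 1 to 2 kb they were 0.10, 0.08, -0.03 and 0.02. In these 5 strains the median of the longest class was thus the lowest of the 6 classes at 60 min.

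**Figure D5:**
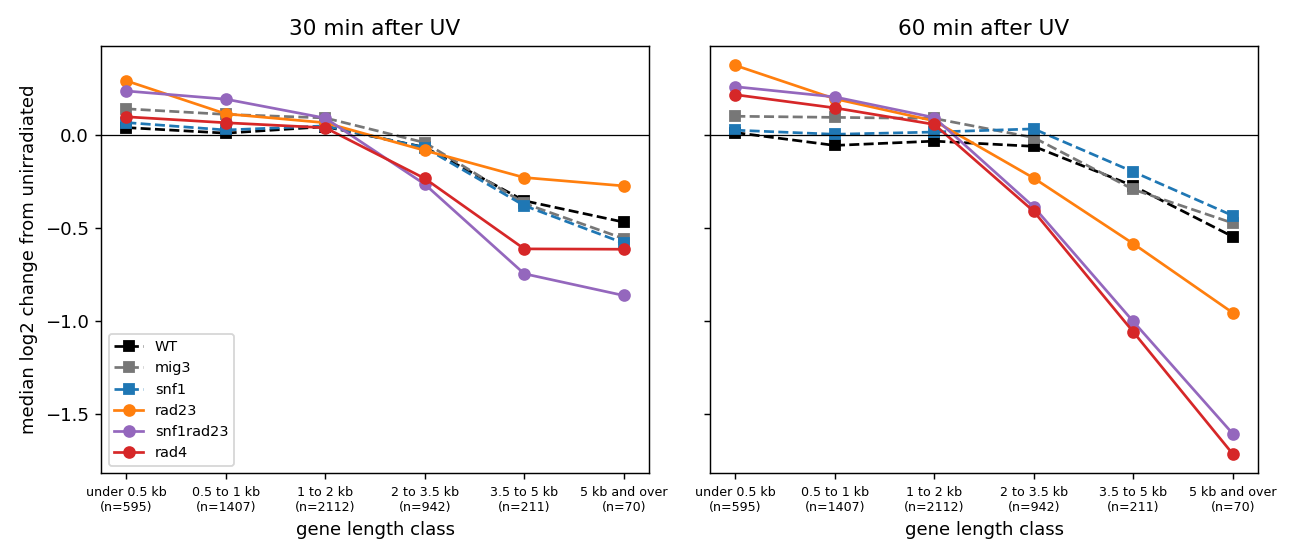
Median log2 UV response (y axis) of all 5337 tested genes in 6 classes of gene length (x axis, number of genes in brackets) at 30 and 60 min, by strain. At 60 min the rad4 line goes from 0.22 under 0.5 kb to -1.72 at 5 kb and over, and the WT line from 0.01 to -0.55.

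The 232 other tested genes of 3.5 kb and over (median 4.21 kb) showed the same direction with smaller medians. In rad4 at 60 min their median response was -1.10, with 180 that fell and 11 that rose, against 26.9% and 26.9% of all probe sets. Their median was -1.02 in snf1rad23, -0.60 in rad23, -0.27 in WT, and -0.63 for the difference between repair-deficient and repair-proficient responses. At 3.5 to 5 kb, the median in rad4 at 60 min was -2.12 for 13 of the 49 and -1.02 for 198 other genes. At 5 kb and over it was -1.91 for 36 of the 49 and -1.45 for 34 others. Since the 49 were chosen with earlier results of these data known, no test of that gap was made.

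Short partners of the same complexes, such as the small subunits of RNA polymerases, remodellers and the SAGA and NuA4 complexes, were read beside the long genes. Of the 120 tested, 35 (29.2%) fell and 16 (13.3%) rose in rad4 at 60 min, with a median of -0.16, against 26.9% and 26.9% of all probe sets. In snf1rad23 29 (24.2%) fell and 24 (20%) rose, against 25.6% and 27.2%, with a median of -0.05. In rad23 17 (14.2%) fell and 33 (27.5%) rose, against 19.3% and 23.8%, with a median of 0.12. The difference between repair-deficient and repair-proficient responses at 60 min was lower for 21 (17.5%) and higher for 11 (9.17%) of the 120, against 17.9% and 18.7% of all probe sets, with a median of -0.04. The largest of these were LDB18, a dynactin subunit, at 1.26 (adjusted p = 4e-06), and EAF1 and EPL1, both of NuA4, at -1.15 (adjusted p = 0.00236) and -1.10 (adjusted p = 0.000207).

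Within the 49, length and response were only loosely ordered. Across the 49 genes, which are no independent replicates, Spearman's rho between length and response at 60 min was 0.16 in rad4, -0.01 in snf1rad23, -0.21 in rad23, -0.30 in WT and -0.45 in snf1. The mean level over all arrays, which holds the irradiated arrays themselves, had a rho of 0.64 with the rad4 response at 60 min and 0.63 with the WT response at 30 min, so the dimmer members had the lower responses there. With the WT response at 60 min it was -0.01. The responses of the 49 at 60 min in rad4 and snf1rad23, which share no array, had a rho of 0.89, against 0.61 for rad4 and rad23 and 0.43 for rad4 and WT. The rho at 30 min was 0.87 for rad4 and WT and 0.86 for WT and snf1. The points of each such value share their probe sets, and what else they share was not tested.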

How the data were processed

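The authors deposited 1 log2 value per probe set and array, computed with GCRMA 2.10.0 in R 2.6.2 per the submitters' processing notes, and these were used as deposited. The 41 arrays are Affymetrix Yeast 2.0 arrays. The RefSeq R64 gene table and the platform annotation gave gene names and gene lengths from first to last coding base. Probe sets that reached 4 on at least 2 arrays were tested (5380 for 5337 genes). A model with 1 mean for each of 21 groups was fitted with limma 3.58.1 in R 4.3.3 (20 residual, 2.86 prior degrees of freedom), and each of 41 contrasts was adjusted by Benjamini-Hochberg over all probe sets and called at an adjusted p under 0.05. Of these, 5 contrasts were added after seeing the data. Errors are SE of the fit. The spread of the lone mig3 array at 15 min was taken to equal that of the other groups.

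The 49 genes, their role groups, the short partners and the damage response list were chosen with earlier results of these data known. Values on every array are given for up to 4 called members with the largest fall and 2 with the largest rise in the 30 and 60 min responses of WT and the repair-deficient strains, up to 6 with the largest pooled difference, and the paralog or partner pairs TOR1 and TOR2, IRA1 and IRA2, MLP1 and MLP2, FAS1 and FAS2, and MYO1 and MYO2. The fit was tested on simulated data with independent arrays and equal spread in all groups. That test therefore does not cover groups of unequal spread or correlated replicates. The labels do not state that same-numbered replicates pair across times. Deviations of same-numbered arrays correlated over 0.1 for 18 of 24 within-strain pairs of groups (r from -0.35 to 0.714). Pairing was to be taken from the data only where every pair was over 0.1, so no replicate term was used. The number of arrays limits the precision.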

Additional observations from a re-analysis of the deposited data

Results flagged for a closer look

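Differences between UV responses of strains were each tested as a contrast of the limma fit, and the following passed. The repair-deficient minus repair-proficient response was lower for 3 of the 49 very long genes at 30 min, against 2.25% of all probe sets. It was lower for 42 at 60 min, against 17.9%, and its change from 30 to 60 min was lower for 36, against 10.7%. The rad4 response was lower than that of WT for 37 at 60 min, against 9.07%, and the rad23 response for 10, against 5.56%. The snf1rad23 response was lower than that of WT for 26 at 60 min, against 8.74%, and for 2 at 30 min, against 1.17%. The snf1rad23 response was lower than that of snf1 for 2 at 30 min, against 2.66%, and 33 at 60 min, against 16.1%. The rad4 response was lower than that of rad23 for 3 at 30 min, against 3.14%, and 20 at 60 min, against 10.9%. The snf1rad23 response was lower than that of rad23 for 8 at 30 min, against 1.51%, and 7 at 60 min, against 3.61%. Several of these counts changed with the processing, as given below.

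At 30 min the genes with a difference between repair-deficient and repair-proficient strains were MLP2 at -0.99, RPO21 at -0.94 and PRP8 at -0.64 on the log2 scale. At 60 min the 6 largest were MOT1 at -2.68, MYO1 at -2.64, AVO1 at -2.07, STH1 at -1.89, USO1 at -1.86 and TRA1 at -1.82. MDN1, at 0.71, was the 1 gene called with a higher response in the repair-deficient strains, where its mean response was a smaller fall.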

How the results depend on the processing

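All counts here are of the 49 very long genes called by limma. Leaving out the filter on low values, filtering on fission yeast background, an intensity trend with a robust prior and the mean of a gene's probe sets each kept all 41 counts within 1.5 times. The falls at 60 min in rad23, snf1rad23 and rad4 and the pooled difference at 60 min stayed within 1.5 times under every setting run. The pooled difference at 30 min, the falls in WT at 60 min and the responses of rad4, rad23 and snf1rad23 minus that of WT at 60 min did not.

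With array weights, the 2 arrays of a group got equal weight, and groups whose replicates lay far apart got less. Both WT arrays at 60 min had a weight of 0.133. The falls in WT were 14 at 15 min and 6 at 60 min. Falls in the arrays labelled mig3 were then 11, 12 and 7 at 15, 30 and 60 min, and those in snf1 23, 41 and 32. The lower responses were 8 for the pooled difference at 30 min, 2 and 23 for rad4 minus WT at 30 and 60 min, 1 and 1 for rad23 minus WT, 3 for snf1rad23 minus WT at 60 min, 10 for snf1rad23 minus snf1 at 30 min, and 7 and 34 for rad4 minus rad23. The unirradiated differences were 1 in mig3 and 22 in snf1, and the rises from 30 to 60 min 1 in WT and 2 in rad23.

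With only the arrays of a comparison in the fit, which leaves few residual degrees of freedom, the falls in WT were 2 at 15 min and 0 at 60 min, those in mig3 0, 0 and 0, and those in snf1 22 at 15 min and 32 at 60 min. The lower responses were 8 for the pooled difference at 30 min, 14 for rad4 minus WT at 60 min, 1 and 1 for rad23 minus WT, 0 and 0 for snf1rad23 minus WT, 6 for rad4 minus rad23 at 30 min, and 4 and 3 for snf1rad23 minus rad23. The unirradiated difference of rad4 was 0. The rises from 30 to 60 min were 0 in WT, 2 in rad23 and 0 in rad4.

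Quantile normalization gave 0 falls in WT and 0 in mig3 at 15 min, 5 for the pooled difference at 30 min, 1 for rad23 minus WT at 30 min, 4 for snf1rad23 minus WT at 30 min, 0 for unirradiated rad4, 1 rise from 30 to 60 min in snf1rad23, and 1 and 13 for rad4 minus rad23. Median centring gave 0 falls in WT and 0 in mig3 at 15 min. With snf1 alone as the repair-proficient strain, the pooled difference at 30 min was called for 1.

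A replicate block, the replicate number as a term, gave 5 for the pooled difference at 30 min and 1 for rad23 minus WT at 30 min, and kept the other 39 counts within 1.5 times. The labels do not pair the numbers, and correlated deviations were over 0.1 for 18 of 24 within-strain pairs of groups, not for every pair.

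With each array left out in turn, the falls ranged from 0 to 0 in WT at 15 min, 15 to 22 at 30 min and 13 to 34 at 60 min. In mig3 they ranged from 0 to 0, 14 to 21 and 9 to 16, and in snf1 from 0 to 4, 19 to 25 and 11 to 15. In rad23 they ranged from 13 to 15 and 30 to 37, in snf1rad23 from 30 to 42 and 43 to 46, and in rad4 from 25 to 30 and 43 to 44. The pooled difference ranged from 0 to 10 at 30 min and 42 to 44 at 60 min, and its change from 32 to 40. The responses minus that of WT ranged from 23 to 40 for rad4 at 60 min, 4 to 25 for rad23 at 60 min, and 0 to 5 and 21 to 40 for snf1rad23. The snf1rad23 minus snf1 counts ranged from 0 to 6 and 31 to 33, those of rad4 minus rad23 from 1 to 3 and 11 to 20, and those of snf1rad23 minus rad23 from 1 to 11 and 2 to 8. The unirradiated counts ranged from 6 to 8 in snf1, 7 to 12 in rad23, 2 to 7 in snf1rad23 and 0 to 2 in rad4. Rises from 30 to 60 min ranged from 2 to 12 in WT, 8 to 13 in snf1, 0 to 1 in snf1rad23 and 0 to 1 in rad4.

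Of the single genes, URA2 in WT at 60 min changed sign, to 0.10 (adjusted p = 0.704) without WT 60 min replicate 2, and was -1.64 without replicate 1. The cause of these changes was not tested.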

Other observations

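The BLM10, RPO21, POL1 and KOG1 transcripts rose in snf1 at 60 min, by 0.78, 0.73, 0.66 and 0.49 on the log2 scale. In snf1rad23, which also lacks SNF1, RPO21, POL1 and KOG1 fell at 60 min, by 1.62, 0.85 and 0.83, and BLM10 had a value of -0.18 without a call. By limma the snf1 calls of RPO21, POL1 and KOG1 each ended without at least 1 single array (adjusted p = 0.0585 to 0.218), and that of BLM10 held.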
